A study of Drosophila melanogaster with 2 samples.

Results

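The genes described here are the cytosolic ribosomal protein genes of Drosophila melanogaster, taken as the protein-coding genes whose symbol begins with RpL (large subunit) or RpS (small subunit) in Ensembl release 115. There were 92 of them, 54 RpL and 38 RpS, among 13968 protein-coding genes. Binding of the transcription factor cropped (crp) was profiled by chromatin immunoprecipitation with sequencing in whole embryos of mixed sex, 0 to 16 hours old. All samples came from one crp-GFP line, in which a GFP tag sits at the C terminus of the crp protein, and the precipitation used an anti-GFP antibody. The single group had 2 biological replicates, numbered 1 and 3. Untagged embryos and control libraries were not analysed here, so no comparison between conditions was possible and the replicates are the measure of error. A signal from whole embryos averages over all their cell types. Per the labels the line is transgenic, with the tagged protein made from an insertion, and how its level compares with that of native crp was not tested.

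The cytosolic ribosome translates nuclear-encoded messages, and its protein genes are among the most strongly transcribed genes of growing cells. In flies many of them start transcription at a pyrimidine-rich initiator, the TCT motif, in place of the usual initiator. Some of the proteins are encoded by duplicated genes, of which 1 copy usually serves most tissues while another is often biased to the germ line. Crp, a helix-loop-helix protein with a zipper, is the fly relative of vertebrate AP-4, and AP-4 type factors bind the E-box CAGCTG.

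Sequences with this E-box under 7 summits (the point of highest enrichment in a peak) are shown first, because they hold the letters a crp-type factor is known to bind. They come from the peaks that passed the authors' irreproducible discovery rate (IDR) procedure, at summits within 1000 bp of an annotated transcription start site (TSS) of a ribosomal protein gene. The bases were read from the NCBI Release 6 assembly, which has dm6 coordinates, on the coding strand of the ribosomal protein gene. CAGCTG is in capitals. Windows were 60 bases long, or 30 where the longer one would have reached an annotated untranslated region, and the shorter windows can themselves hold transcribed bases of the neighbour or the gene.
RpL24-like, chr3R:11431840-11431869, minus strand: CAGCTGgcgcaaCAGCTGgtgcaaactggc
RpS28a, chr3R:30022245-30022304, minus strand: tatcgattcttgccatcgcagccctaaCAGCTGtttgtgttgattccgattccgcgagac
RpL37-1, chrX:15139767-15139826, minus strand: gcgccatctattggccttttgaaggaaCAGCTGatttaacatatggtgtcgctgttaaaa
RpL34a, chr3R:26058257-26058316, minus strand: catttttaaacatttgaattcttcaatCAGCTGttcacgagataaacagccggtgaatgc
RpL32, chr3R:30046447-30046476, minus strand: acatctattgaaCAGCTGttgcatccagtg
RpS20, chr3R:20821848-20821877, plus strand: cgcagcgagcgaCAGCTGattctcaggtaa
RpS21, chr2L:2856029-2856058, plus strand: tcaccccaaaacCAGCTGgtacgcaaaact
The middle of the printed E-box lay 2 bp from the summit at RpL34a, 6 bp at RpL37-1, 8 bp at RpL32, 10 bp at RpS28a, 18 bp at RpL24-like, 30 bp at RpS21 and 32 bp at RpS20. RpL24-like has 2 copies in its window. RpS21 also has 2 within 50 bp of its summit, and the one outside its window is in lower case in its initiator sequence, printed below.

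The share of ribosomal protein genes with a strong crp peak was near that of all genes. It was above that background with windows of 500 bp (12% against 10.2%), 1000 bp and 2000 bp (16.3% against 13.1%). Of the windows tried it was below only at 250 bp, where 4 genes had a summit. Within 1000 bp of a TSS, 13 of the 92 genes had an IDR summit (14.1%, Wilson 95% interval 8.45 to 22.7%). Among all protein-coding genes the share was 11.1%, inside that interval. A pooled candidate, from the list made of both replicates before IDR, was present at 66 of the 92 genes (71.7%, 61.8 to 79.9%), against 50.7% of all protein-coding genes. Of the genes with a candidate, 19.7% of the ribosomal protein genes (13 of 66, 11.9 to 30.8%) and 21.9% of all genes had an IDR summit. By subunit, an IDR summit was at 8 of 54 RpL and 5 of 38 RpS genes. The intervals cover counting error only, and neighbouring genes can share a peak. These shares were not tested against each other.

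The 13 genes had 14 IDR summits, since RpS28a had 2. In 8 of the 14 placements (57.1%, 32.6 to 78.6%) the summit was nearer to the TSS of another protein-coding gene, against 683 of the 1768 placements over all genes (38.6%), which is inside that interval. It was also above the share over all placements with windows of 500 bp (50% against 34.6%) and 2000 bp (62.5% against 49.1%). With a window of 250 bp it was 0 of 4, against 27.6% of all placements. With only 4 placements no direction was read from that value. When each summit was given only to the gene with the nearest TSS, 6 ribosomal protein genes kept one (6.52% of 92, 3.02 to 13.5%), and 7.37% of all protein-coding genes did. The 6 were RpL37-1, RpS28a, RpS27, RpS23, RpS21 and RpL27. With the strongest candidates of replicate 3 alone in place of the IDR peaks, which leaves out replicate 1, 3 genes kept one (RpL37-1, RpS23 and RpS27). That is 3.26% of the ribosomal protein genes, against 7.09% of all protein-coding genes. The median distance from the summit to the ribosomal protein gene's own TSS was 302.5 bp, against 95.5 bp over all placements. Within 200 bp lay 4 of the 14 summits (28.6%), against 71.8% of all placements. With a window of 250 bp the count of ribosomal protein genes with an IDR summit was 4, which is 4.35% against 9.13% of all genes, the reverse of the order at 1000 bp. The count of genes with a pooled candidate was then 35. The share of all genes at that window is not given here, so this count has no background to be read against.

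**Figure D1:**
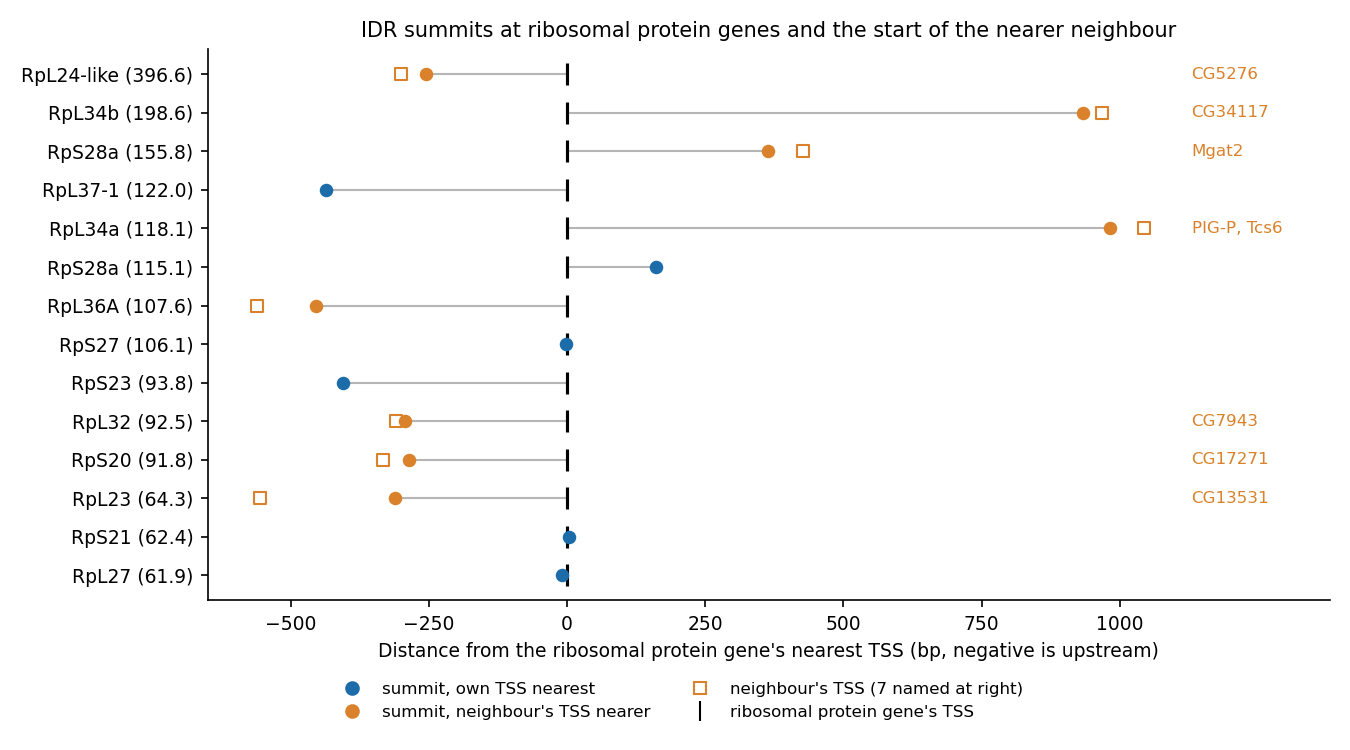
Position of each of the 14 IDR summits relative to the nearest TSS of the ribosomal protein gene (x axis, bp, negative is upstream), with 1 line per summit and its pooled signal value in brackets. Blue summits have the ribosomal protein gene's own TSS as the nearest, orange ones have a neighbour's TSS nearer (open square, 7 of them named at right). The 8 orange summits sit 16 to 244 bp from the neighbour's TSS, and 3 blue ones lie within 9 bp of their own.

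The 8 summits nearer to a neighbour fell into 2 arrangements. In 5 of them the neighbour was transcribed away from the ribosomal protein gene on the opposite strand. The summit lay between the ribosomal protein gene's start and the neighbour's start nearest to the summit. At RpL24-like the summit was also inside the 5′ UTR of its neighbour CG5276, downstream of another start of CG5276. In the other 3 both genes lay on the same strand, and the summit was past the 3′ end of the ribosomal protein gene, at the start of the next gene. The distance to the neighbour's TSS ran from 16 to 244 bp with a median of 54 bp. Counting non-coding genes as possible neighbours left the numbers at 8 of 14. A TSS of another protein-coding gene within 1000 bp of their own was present at 58 of the 92 ribosomal protein genes (63.0%) and at 42.8% of all genes. Of those 58, 10 had an IDR summit (17.2%, against 20.2% of all genes with such a neighbour), and of the other 34, 3 did (8.82%, 3.05 to 23.0%, against 4.30%).

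Among the shared divergent promoters the strongest peak was at RpL24-like. Its product is related to yeast Rlp24, a factor that takes part in assembly of the large subunit and is not part of the finished ribosome. The peak, at 11431714 to 11431940 on arm 3R, had a pooled signal value of 396.6, the ninth highest of the 1122 IDR peaks, with 197.9 in replicate 1 and 204.0 in replicate 3. Signal values are the enrichment scores that the authors deposited for each peak, and they have no unit. The summit lay 45 bp from a TSS of CG5276 and 255 bp upstream of that of RpL24-like, in the 5′ UTR of CG5276. Both replicates' own summits also lay nearest to CG5276, at 8 and 32 bp from one of its TSSs. RpL36A, a large subunit gene, had a peak of 107.6, with 64.1 in replicate 1 and 42.9 in replicate 3, whose summit was 454 bp upstream of its TSS.

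RpL32, the large subunit gene known as rp49 and often used as a reference in fly expression work, had a peak of 92.5. Replicate 1 gave 51.1 and replicate 3 gave 42.6. The summit was 16 bp from the TSS of CG7943 and 293 bp upstream of RpL32, and the replicates' summits were 19 and 23 bp from CG7943. RpS20, a protein of the small subunit head, had a peak of 91.8, with 60.0 in replicate 1 and 32.1 in replicate 3. This was the widest gap between replicates among the 14 peaks, a log2 ratio of replicate 3 to replicate 1 of -0.90. Its summit was 47 bp from CG17271. RpL23, a large subunit gene, had a peak of 64.3 close to the lowest IDR signal of 61.3, with 27.4 and 39.5 in replicates 1 and 3. The summit lay 244 bp from CG13531 and 312 bp from RpL23. In replicate 1 the candidate of 27.4 had its summit 22 bp from CG13531 and 578 bp upstream of RpL23. Weaker replicate 1 candidates of 24.1 and 21.4 lay 310 and 64 bp upstream of RpL23, the former close to the pooled summit. The replicate 3 summit was 190 bp from CG13531.

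The 3 placements on the same strand were at RpL34b, RpL34a and RpS28a. RpL34b had a peak of 198.6 (103.8 in replicate 1 and 93.4 in replicate 3), whose summit was 151 bp past the annotated 3′ end of the gene and 33 bp from the TSS of CG34117. RpL34a had one of 118.1 (67.4 and 51.7, the first with its own summit 1004 bp from the TSS), 136 bp past its 3′ end and 61 bp from a TSS shared by PIG-P and Tcs6. PIG-P encodes a subunit of the enzyme that begins the synthesis of GPI anchors. Both copies of RpL34 thus had a strong peak beyond their end, 934 and 983 bp from their own TSS, and neither was counted with a window of 500 bp. The stronger RpS28a summit, with a value of 155.8, was 60 bp past the 3′ end of this short gene and 64 bp from Mgat2, which encodes an enzyme of N-glycan processing.

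The second RpS28a summit, 115.1, lay in the coding exon 160 bp downstream of the TSS. The 2 peaks overlapped, at 30022083 to 30022486 and 30022286 to 30022689 on arm 3R. Replicate 1 also had 2 candidates, of 87.1 at 360 bp and 60.4 at 157 bp from the TSS, whereas replicate 3 had a single one of 67.4 at 242 bp. The single candidate of replicate 3 overlapped both pooled peaks. Its summit lay inside the RpS28a gene but nearest to the TSS of Mgat2, at 185 bp, so the split into 2 summits was seen in 1 of the 2 replicates. The replicate ratio of both peaks rests on 87.1 and 67.4, the strongest overlapping values. With 1 summit for each merged region, RpS28a dropped out and the number of genes with their own TSS nearest was 5.

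At 4 of the genes with a neighbour nearer to the IDR summit, a second and weaker pooled candidate lay at the gene's own start. At RpS20 it was 57.3, 87 bp upstream of the TSS, with 31.0 at 84 bp in replicate 1 and no separate candidate there in replicate 3, whose 32.1 at 168 bp is the value given for the main peak. At RpL34b it was 57.2 at 69 bp upstream, with 37.6 at 72 bp in replicate 1, and in replicate 3 the closest candidate was 21.1 at 167 bp. RpL23 had 41.8 and RpL34a 33.5, both 62 bp upstream. These 4 candidates were below the lowest IDR signal of 61.3, and those of RpS20 and RpL34b came closest to it. They were picked out after their values were seen.

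At 3 genes the IDR summit lay within 9 bp of a start of the ribosomal protein gene itself. RpS27, which encodes a zinc-binding protein of the small subunit, had a peak of 106.1 (56.5 in replicate 1 and 42.6 in replicate 3) with the summit 2 bp from its nearest annotated TSS. RpS21, also of the small subunit, had 62.4 (29.4 and 31.6), 3 bp from a TSS and inside the 5′ UTR. RpL27, of the large subunit, had 61.9 (41.0 and 27.7), 9 bp upstream of its TSS. The last 2 values were close to the lowest IDR signal, 61.3, and ranked 1102 and 1112 of 1122. RpS21 was not near any of the 1122 strongest candidates of either replicate, and RpL27 was near one of those of replicate 1 only. The replicates' own summits were less close. In replicates 1 and 3 they lay 42 and 14 bp from the same TSS at RpS27. The distances were 3 and 55 bp at RpS21, and 94 and 8 bp at RpL27.

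The initiators of these 3 genes are printed because TCT-type starts set ribosomal protein genes apart from most others in flies. Each run is 30 bases on the coding strand around an annotated TSS, which is base 16, in dm6, with the letters CTTT closest to that TSS in capitals.
RpS27, chr3R:25247458-25247487, minus strand: ctgcgatttaccccacttcCTTTtccgtgt
RpS21, chr2L:2856096-2856125, plus strand: acgtccagctgtcatttCTTTctctttttc
RpL27, chr3R:25685037-25685066, minus strand: catctctaaaatctccccttCTTTtctttt
Measured from these starts, the summits lay 44 bp upstream at RpS27, 38 bp upstream at RpS21 and 9 bp upstream at RpL27. The letters CTTT, searched on the coding strand only with their C within 5 bp of any annotated TSS, were found at 58 of the 92 ribosomal protein genes (63.0%, 52.8 to 72.2%) and at 8.06% of all protein-coding genes. Of the 13 ribosomal protein genes with an IDR summit 5 had them (38.5%, 17.7 to 64.5%), and 3 of the 6 whose own TSS was nearest. Among all 1126 protein-coding genes with CTTT at a TSS, 139 (12.3%) had an IDR summit, close to the 11.1% of all genes. These letters are only a part of the TCT motif, and a match is no evidence of use.

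The remaining placements, at RpL37-1 and RpS23, were upstream of an isolated start. RpL37-1, a zinc-binding large subunit protein gene on the X, had a peak of 122.0 with 65.2 in replicate 1 and 67.9 in replicate 3, at 15139601 to 15140004. The summit was intergenic, 436 bp upstream of the single annotated TSS, with no other protein-coding TSS within 1000 bp of it. In replicate 1 it was 366 bp and in replicate 3 436 bp upstream. RpS23, whose product lies at the decoding centre of the small subunit, had a peak of 93.8 (45.5 and 46.9) with its summit 406 bp upstream of a TSS and again no start of another gene within 1000 bp of it. At both genes the replicates differed little in signal, with log2 ratios of 0.06 and 0.04.

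The IDR procedure keeps peaks on which the replicates are alike, so closeness of the replicate values at the 14 peaks was in large part fixed by that choice. Replicate 3 was lower at 9 and higher at 5, with a median log2 ratio of -0.32 (SD 0.36, n = 14), against -0.17 (SD 0.51) over the 1121 IDR peaks with a candidate in both. A peak at RpL23 had the largest ratio in the other direction, 0.53. The median pooled signal was 106.9, against 110.1 over all IDR peaks, and 6 of the 14 exceeded that value. Of the 13 genes, 8 were near one of the 1122 strongest candidates in each of the 2 replicates. The others were RpL27 and RpS20 in replicate 1 alone, RpL23 and RpL34a in replicate 3 alone, and RpS21 in neither. At RpL34a the overlapping replicate 1 candidate, 67.4, was higher than the 51.7 of replicate 3. Its summit, 1004 bp from the TSS, fell just outside the 1000 bp window.

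**Figure D2:**
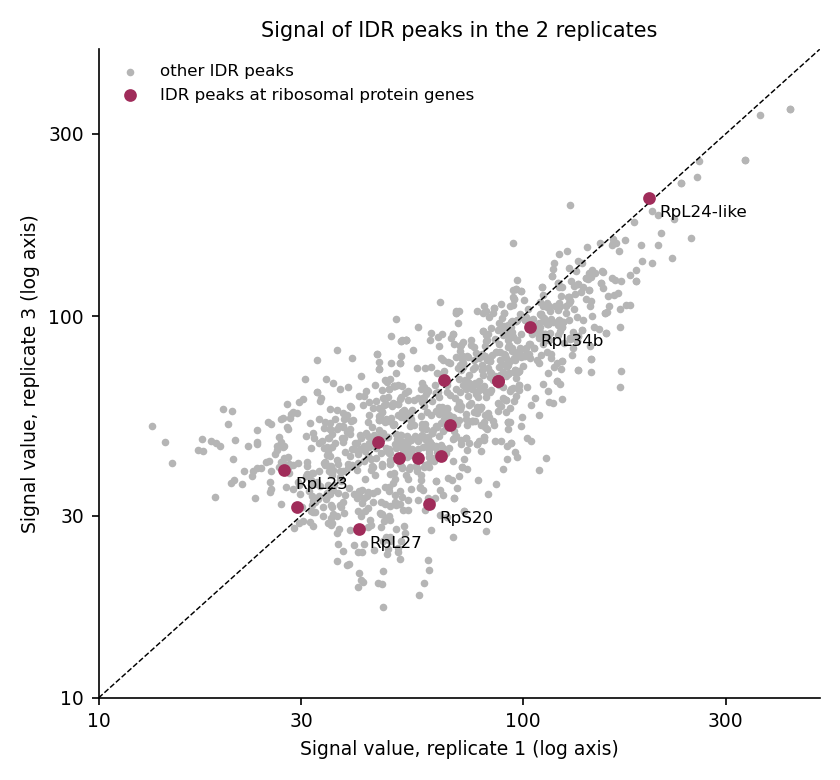
Signal value of each IDR peak in replicate 1 (x axis) and replicate 3 (y axis), both log axes, using the strongest overlapping candidate of that replicate. The IDR peaks at ribosomal protein genes (red, 5 named) lie within the cloud of the other IDR peaks (grey) and on both sides of the dashed line of equal values, 9 of 14 below it.

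CAGCTG was within 50 bp of 8 of the 14 summits (57.1%, 32.6 to 78.6%), against 48.2% of all 1122 IDR summits, which falls inside that interval. It was present at 3 of the 6 summits nearest to the ribosomal protein gene's own TSS and at 5 of the 8 nearer to a neighbour. With the strongest candidates of replicate 1 in place of the IDR peaks, which leaves out replicate 3, it was at 4 of 13 (30.8%), whereas all the strongest candidates of replicate 1 had it in 47.3%. The summits without it were those of RpL34b, RpL36A, RpS23, RpL23 and RpL27 and the second of RpS28a. In promoters, taken as 250 bp before to 50 bp after the 5′-most TSS, CAGCTG on either strand was present at 9 of the 92 ribosomal protein genes (9.78%, 5.23 to 17.6%) and at 17.7% of all protein-coding genes. Of those 9 genes, 2 (RpS21 and RpS27) had an IDR summit, and of all 2468 genes with the site 971 did (39.3%). TATCGATA, the consensus of the DNA replication-related element bound by Dref, was in the same window at 28 of 92 ribosomal protein genes (30.4%, 22 to 40.5%) and at 9.36% of all. It was present at 5 of the 13 genes with an IDR summit.

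Most ribosomal protein genes had weak candidates or none. The strongest pooled candidate of the 66 genes had a median of 28.9, against 28.4 over the 7075 protein-coding genes with one, and its lowest value was 18.6. The 53 genes with a candidate but no IDR summit ran up to 48.4, with a median of 26.7 against 25.6 for all genes of this kind. Their strongest candidate was within 200 bp of a TSS at 24 of 53 genes (45.3%, 32.7 to 58.5%), against 29.4% of all genes with a candidate but no IDR summit. It was nearer to another gene at 13 of 53 (24.5%), against 18.9%. The signal thus fell from 61.9 at RpL27 to 48.4 at RpS14b with no ribosomal protein gene between.

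**Figure D3:**
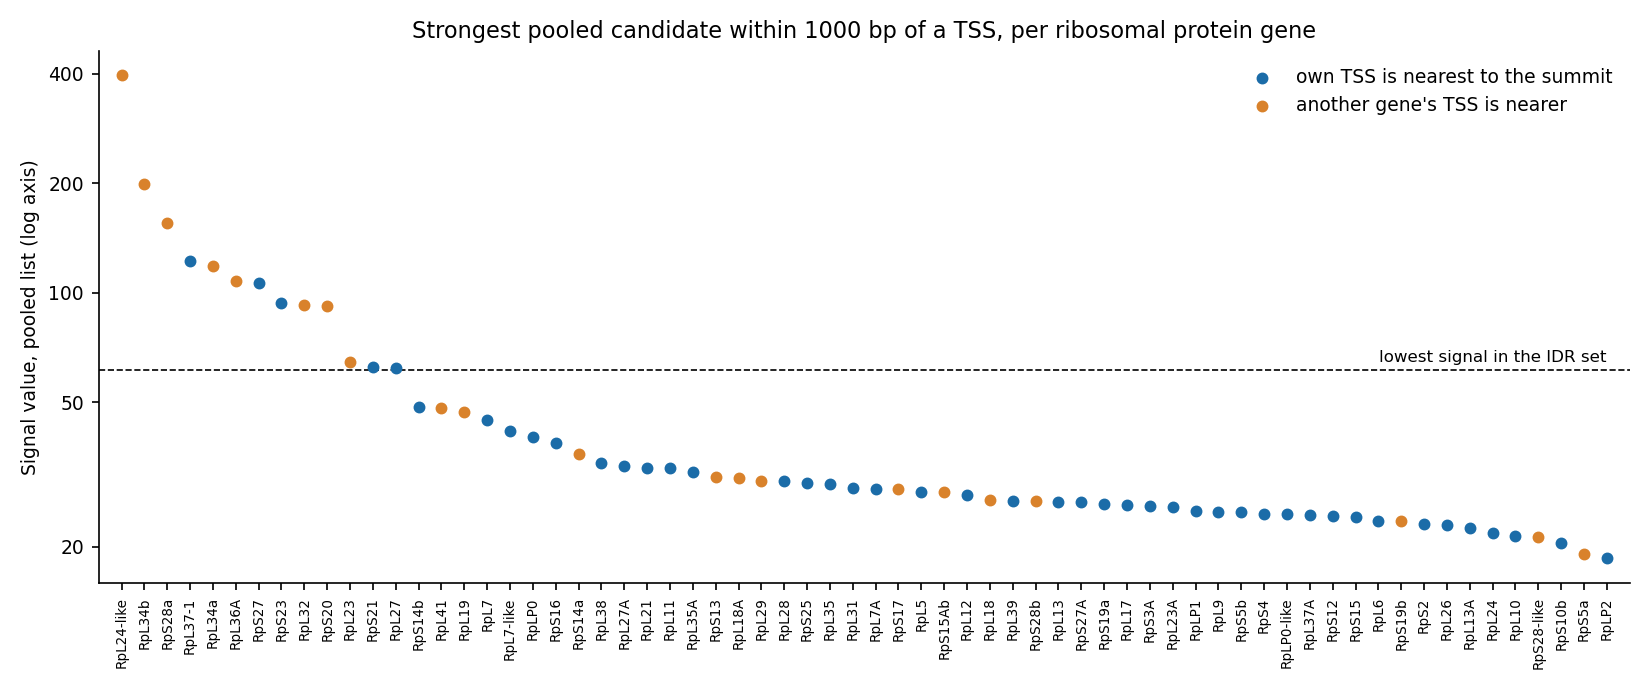
Signal value (log axis) of the strongest pooled candidate within 1000 bp of a TSS for each of the 66 ribosomal protein genes that had one, in descending order, coloured by whether the own TSS (blue) or another gene's TSS (orange) is nearest to that summit. The 13 genes above the dashed line, the lowest IDR signal of 61.3, run from 61.9 to 396.6, and the rest start at 48.4.

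The 10 genes next in order had their own TSS nearest in 7 cases. RpS14b, a protein of the small subunit platform, had 48.4, with 31.0 in replicate 1 and 17.3 in replicate 3, at 23 bp from its TSS. RpL41, the gene of a very short peptide of the large subunit, had 48.3 (28.6 and 16.8) but lay nearer to the sodium channel gene NaCP60E. RpL19 had 47.0 (13.4 and 26.1) nearer to CG3776. The large subunit gene RpL7 had 44.7 (22.3 and 23.6) at 29 bp from its TSS. RpL7-like had 41.7 (16.8 and 23.5), RpLP0, the base of the ribosomal stalk, had 40.0 (13.7 and 28.9), and RpS16 had 38.7 (20.9 and 19.2). RpS14a followed with 36.1, nearer to Dhdds, a gene of dolichol synthesis, and RpL38 and RpL27A with 34 and 33.4. For the last 2 only replicate 1 had an overlapping candidate (20.9 and 20.4). These values are at the level of pooled candidates that failed IDR, and whether they are binding was not tested.

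At 26 genes no pooled candidate was near a TSS. Among them were RpL3, RpL4, RpL8, RpL10Aa, RpL10Ab, RpL14, RpL15, RpL22, RpL22-like, RpL30, RpL36, RpL37-2 and RpL40 of the large subunit, and RpS3, RpS6, RpS7, RpS9, RpS10a, RpS15Aa, RpS18, RpS24, RpS26, RpS29 and RpS30 of the small. None of the 26 had a candidate in both replicates, 14 had one in a single replicate and 12 in neither. The 7 values in replicate 1 ran from 10.1 to 17.4 and the 7 in replicate 3 from 12 to 27.1, in lists whose lowest values were 9.6 and 10.9. Over all 92 genes, replicate 1 had a candidate at 59 and replicate 3 at 67, and 48 had one in both. The shares of all protein-coding genes with a candidate in these lists are not given here, so these counts have no background beside them. RpS6, known as a target of S6 kinase, has CAGCTG in its promoter window and was among the 12 with no candidate in either list.

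Copies of duplicated genes were compared next. Symbols with a shared stem formed 13 families of 27 genes. For 11 families a main copy, the one known to serve most tissues, was taken from general knowledge, and for RpL34 and RpS14 the copies are given side by side. An IDR summit was within 1000 bp of 1 of 11 main copies (RpL37-1), 2 of 12 other copies (RpL24-like and RpS28a) and both copies of RpL34, which is 5 of 27 in all (18.5%, 8.18 to 36.7%), and of 8 of 65 genes outside these families (12.3%, 6.37 to 22.5%). Only RpL37-1 and the second summit of RpS28a had the copy's own TSS nearest, so 2 of the 27 remained by that criterion, and with a 500 bp window 3 of the 27 had a summit. Pooled candidates were at 8 of 11 main and 8 of 12 other copies, against 50.7% of all genes. The intervals of both 18.5% and 12.3% hold the 11.1% of all genes with an IDR summit, so these counts set neither kind apart.

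**Figure D4:**
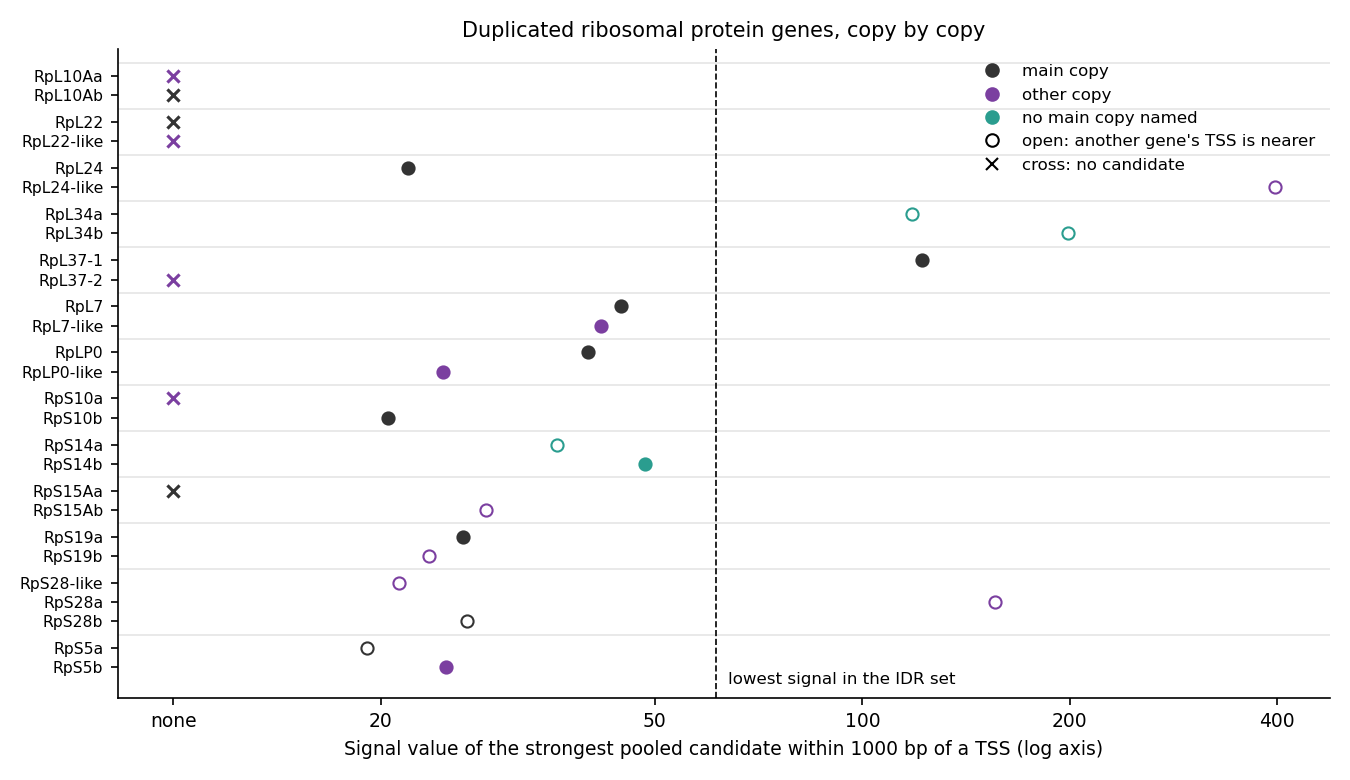
Strongest pooled signal (x axis, log scale) of each copy in the 13 families of duplicated ribosomal protein genes, with crosses for copies that had no candidate within 1000 bp of a TSS and open circles where another gene's TSS is nearer to the summit. Of the 5 copies right of the dashed line at 61.3, 1 circle, RpL37-1, is filled.

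In 3 families the copies differed by an IDR peak on one side. RpL24 had a candidate of 21.9, 33 bp from its TSS and found in replicate 3 only (18.5), where RpL24-like had 396.6. The predicted proteins, translated from the assembly, had 34.8% of residues identical, so RpL24-like is a distant relative and not a recent copy. RpL37-1 had 122.0, and RpL37-2, which has 75.3% identity to it and 1 exon against 3, had no candidate in any of the 3 lists. RpS28b, the main copy, had 26.7 (11.4 in replicate 1 and 14.7 in replicate 3), nearer to l(1)G0320, and RpS28a, 82.8% identical to it and of 1 exon, had 155.8. A further relative, RpS28-like, with 44.6% identity, had 21.3, nearer to numb. In the RpL34 family, with 83.3% identity, the values were 118.1 for RpL34a and 198.6 for RpL34b. In each of these contrasts apart from RpL37, the peak of the higher copy was nearer to another gene, as given above.

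In the other 9 families no copy had an IDR summit. RpL7 and RpL7-like, whose product is related to yeast Rlp7, a large subunit assembly factor, had similar values of 44.7 and 41.7 with 34.5% identity. RpLP0 had 40.0 and RpLP0-like, related to the yeast assembly factor Mrt4, had 24.6, with 25% identity. RpS14a and RpS14b, neighbours on the X with 100% identical proteins, had 36.1 and 48.4. RpS19a had 26.3, and RpS19b had 23.5, nearer to CG5854. RpS5a had 19.1, nearer to Chchd2, and RpS5b, the copy known for its role in the ovary, had 24.9. RpS10b had 20.5 and RpS10a, biased to the germ line, had none. RpS15Aa had no pooled candidate and RpS15Ab, with 97.7% identity, had 28.4, nearer to Lsm10. Neither copy of RpL10A nor of RpL22 had one. None of these differences was tested, and all values lay under the lowest IDR signal. Near-identical copies can share reads. In each of the 28 peaks examined (the strongest at each duplicated gene or gene with an IDR summit) every run of 36 bases occurred once in the assembly. Copies without a candidate had no peak to examine, so the check says nothing about them. Whether the authors' reads were of that length is not known from the labels.

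By chromosome arm, 8 of the 13 genes with an IDR summit lay on 3R, which holds 23 ribosomal protein genes, and 12% of all protein-coding genes on that arm had an IDR summit. None of the 14 genes on 3L had one, against 11.1% of all genes there, and 1 of the 14 on X did, against 7.74%. On 2L it was 2 of 19 genes, against 12%, and on 2R 2 of 21, against 12.1%. The single gene on arm 4 had none, against 3.75%. These counts are small and were not tested.

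A list of 48 other genes held 39 of translation and 9 of factors that act on ribosomal protein genes or respond to their loss. An IDR summit was at 2 of the 39 and 2 of the 9, against 11.1% of all genes, and a pooled candidate at 24 and 8, against 50.7%. Of the 28 initiation genes 1 had one, eIF3h, a subunit of initiation factor 3, with a peak of 225.9 (118.8 and 106.2 in replicates 1 and 3) whose summit was 50 bp from its TSS and 13 bp from that of senju. Of the 7 elongation genes 1 had one, eEF5, the fly form of eIF5A, with 73.7 (41.8 and 32.4) at 584 bp, nearer to the channel gene ppk29. None of the ribosomal partners sta and Rack1 or of the nascent chain genes Nacalpha and bic had one.

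Of the 9 factors, Irbp18 and larp had an IDR summit. Irbp18 encodes a bZIP partner of Xrp1, a factor induced in cells that lack 1 copy of a ribosomal protein gene, and its peak of 227.0 (110.7 and 119.3) was 169 bp from its TSS but 57 bp from that of APP-BP1. The peak at larp, which encodes a La-related RNA-binding protein, had 157.5 (93.0 and 63.7), and larp was the single gene of the 48 whose own TSS was the nearest, at 272 bp. Trf2, M1BP, Dref, Myc, Max, Xrp1 and REPTOR had none.

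The proteins of the mitochondrial ribosome, taken by the prefixes mRpL and mRpS, are encoded in the nucleus by a separate set of genes. An IDR summit was within 1000 bp of 37 of these 73 genes (50.7%, 39.5 to 61.8%), against 13 of 92 cytosolic ones (14.1%, 8.45 to 22.7%). Among all protein-coding genes the share was 11.1%. In 26 of the 37 (70.3%, 54.2 to 82.5%) the gene's own TSS was the nearest, against 6 of 13 (46.2%, 23.2 to 70.9%). Over all genes with an IDR summit the own TSS was the nearest in 66.5% (1030 of 1550), which is inside both intervals. Between mitochondrial and cytosolic genes, the intervals for an IDR summit did not overlap and those for the own TSS nearest did. Neither difference was tested. The intervals cover counting error only, and the gene sets were chosen with earlier results of these data known, so overlap or its absence is no test.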

How the data were processed

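Peak lists in the dm6 build were used: 1122 optimal IDR peaks, 26505 pooled candidates, and 30000 candidates for each of replicates 1 and 3. The authors deposited, per the file names and the narrowPeak layout, a signal value, a −log10 q value and a summit offset for each peak. The −log10 q values that the authors deposited were not used for ranking. For the aligner, peak caller and IDR cutoff, names and versions are not stated in the labels, and chromatin was sonicated to 200 to 800 bp per the labels. The lists hold no read counts, so library depth is unknown. The dm3 lists were not used here.

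Summits within 1000 bp of any annotated TSS were assigned to each of the 13968 protein-coding genes of Ensembl release 115, so that 1 summit may serve several genes. The nearest TSS was found among all protein-coding genes. Replicate values at a peak are those of the strongest overlapping candidate, at the 10 genes next in signal likewise, and at the other genes those of the strongest candidate within 1000 bp. Shares carry Wilson 95% intervals, and no significance test was made. Assignment was checked on planted summits. Named genes were all those with an IDR summit, all duplicated copies, the 10 next in signal and those with no candidate, and, of a list of other translation genes and regulators, those with an IDR summit. A few names and 1 sequence that this rule would give are not reported here. The genes and lists were chosen with earlier results of these data known. Proteins were translated from the longest coding transcript and aligned globally with free end gaps and BLOSUM62, with identity over the shorter protein. Alternatives were other windows, TSS sets, peak sets and single replicates. Python 3.11.15, NumPy 2.4.6, pandas 2.3.3, SciPy 1.17.1 and Biopython 1.88 were used.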

Additional observations from a re-analysis of the deposited data

How the results depend on the processing

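No paired analysis was possible because the series holds a single group, so no 2 groups share replicate numbers. The count of ribosomal protein genes with an IDR summit, 13, was 4 with a 250 bp window (4.35% against 9.13% of all genes), 5 with only the IDR peaks of higher signal (5.43% against 6.49%), 4 when the peak interval had to overlap a TSS, and 10 without either replicate. The count with a pooled candidate, 66, was 35 with 250 bp and 59 to 67 without a replicate. The shares of all genes at these settings are not given here. The count whose own TSS was nearest, 6, was 2 with the stronger IDR peaks (2.17% against 4.01% of all genes). It was 3 without replicate 1 (3.26% against 7.09%) and 6 without replicate 3 (6.52% against 7.45%). Without replicate 3 the 6 genes included RpL34b in place of RpS21. For copies of duplicated genes, 5, it was 3 with 500 bp, 1 with 250 bp, 4 to 5 without a replicate, and 2 by own nearest TSS, an alternative chosen after seeing the data. The share of summits nearer to another gene, 57.1%, was 0% with 250 bp (0 of 4, against 27.6% over all genes) and 53.8 to 70.0% without a replicate. The share with CAGCTG, 57.1%, was 30.8 to 50% without a replicate. The share of ribosomal protein genes with an IDR summit was thus below that of all genes with 250 bp and with the stronger peaks, and without replicate 3 as well (10.9% against 11.2%), where it was above with the 1000 bp window and all IDR peaks. Smaller windows and stronger peaks hold fewer summits by construction, and the cause of the other shifts was not tested. The remaining alternatives stayed within 1.5 times the count, within the interval of the share, or within the spread of the replicate ratio. With 14 summits, shares have wide intervals, and depth is unknown.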
